A study of Homo sapiens with 45 samples.

Results

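Oxidative phosphorylation is carried out by protein complexes I to V of the inner mitochondrial membrane, and their subunits are coded partly in the nucleus and partly on the mitochondrial chromosome. The subunit genes were chosen by symbol alone. Nuclear members were protein-coding genes whose symbols begin with NDUFA, NDUFB, NDUFC, NDUFS or NDUFV, SDHA to SDHD, UQCR, COX4 to COX8, ATP5F1, ATP5M or ATP5P, without assembly factors, and mitochondrial members were the protein-coding genes MT-ND, MT-CO, MT-CYB and MT-ATP. This gave 102 members of 60675 genes in the files, 89 nuclear and 13 mitochondrial. By complex, the nuclear members were 38 of complex I, 4 of complex II, 9 of complex III, 19 of complex IV (with NDUFA4 and NDUFA4L2) and 19 of complex V, and the mitochondrial members were 7 of complex I, 1 of complex III, 3 of complex IV and 2 of complex V. Of these, 94 had enough counts to be tested, 81 nuclear and all 13 mitochondrial.

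Complexes I and II pass electrons from NADH and succinate to coenzyme Q, complex III passes them on to cytochrome c and complex IV to oxygen. Complexes I, III and IV pump protons as they do so, and complex V, the ATP synthase, uses the resulting gradient to make ATP. The mitochondrial genome codes for the core membrane subunits of complexes I, III, IV and V, is transcribed by its own polymerase from promoters on both strands and is present in many copies per cell, whereas complex II is coded wholly in the nucleus. Each nuclear subunit is made in the cytosol and imported, and the transcription factors NRF1, NRF2 (GABP, which binds the ETS motif) and YY1 are known regulators of many of these genes.

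Messenger RNA was sequenced from HEK293F cells, which derive from the human embryonic kidney line HEK293 and grow in suspension, while they made recombinant adeno-associated virus (rAAV). All libraries were labelled wild type: AC1.112, AC1.203 and AC1.230 are each clonal, AC1P is polyclonal and 293F carries no such term. Cells were collected before transfection (0 h) and 24 and 72 h after triple transfection with 3 plasmids (pHelper, RepCap9 and a reporter carrying ITRs) by TransIT-VirusGEN in fresh Expi293 medium, with 3 libraries per line and time and 45 in all. Which of the lines are the high producers that the study compared is not in the labels, and no mock-transfected library was analysed here, so plasmids, reagent, fresh medium and time in culture cannot be told apart.

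The total count per library was 24727028 to 59837051. The labels do not say whether replicates were separate cultures, and p-values therefore describe the spread among these libraries only, a part of which may be technical. Of 11 markers of HEK293 cells all were detected, with a summed level of 1120 to 7343 CPM (a gene's count relative to the TMM-scaled library size). Much of that sum came from NEFM (1.30 to 4814 CPM), NEFL (79.1 to 1478) and VIM (590 to 1550), while PAX8 had a median of 0.0931 CPM and was at 0 in 3 libraries. Hepatocyte markers summed to at most 0.831 CPM, endothelial markers to at most 1.66 CPM and 8 haematopoietic markers to between 2.33 and 8.03 CPM, with PTPRC at 0 in 34 libraries and CD3E at 0 in 29. The 6 fibroblast markers summed to 35.7 to 155 CPM at 0 h, 14.7 to 103 CPM at 24 h and 26.02 to 115 CPM at 72 h, most of it from COL3A1 (median 39.5 CPM over all libraries) and COL1A1 (11.4), and COL1A2 was at 0 in 37 libraries. Of 5 fibroblast markers tested, 4 were lower at 24 h, and 2 were higher and 1 lower at 72 h. The part of these markers in the results was not tested.

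Levels of the members differed widely before any comparison. Per kb of exon, the median mitochondrial member stood at 1672 CPM and the median nuclear member at 30.6 CPM. The most abundant members were the core subunits of complex IV, MT-CO1 at 5401, MT-CO3 at 5157 and MT-CO2 at 5101 CPM per kb, followed by the proton-channel subunit MT-ATP6 at 3324 and MT-ND4 of complex I at 2634. MT-ND6, the only member coded on the light strand (chromosome M, 14149 to 14673, GRCh38), was lowest of the mitochondrial members at 53.5 CPM per kb, against 852 for the next, MT-ND5. Among nuclear members, NDUFS5, an accessory subunit of complex I, led at 318 CPM per kb. Next were ATP5F1B, the catalytic beta subunit of the ATP synthase (chromosome 12, 56638175 to 56646068), at 272 CPM per kb, UQCRH, the hinge subunit of complex III, at 230, and COX8A, a small subunit of complex IV, at 144. Exon length was the union of all annotated transcripts, and with the longest transcript instead the nuclear median was 50.4 CPM per kb and UQCRH (471) and ATP5F1B (343) stood above NDUFS5.

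In several isoform pairs of complex IV, the widely expressed gene carried almost all counts. COX4I1 stood at 44.8 CPM per kb while COX4I2, an isoform known from lung, had 1 count in all 45 libraries. COX6A1 stood at 82.5 and COX7A2 at 94.6 CPM per kb, whereas their heart and muscle isoforms COX6A2 and COX7A1 had 3 counts and 1 count. COX6B1 (123 CPM per kb) exceeded the testis isoform COX6B2 (0.108), and COX8A (144) exceeded COX8C (0.149). NDUFA4, a subunit of complex IV first assigned to complex I, stood at 28.04 CPM per kb and its hypoxia-inducible paralogue NDUFA4L2 at 0.144. By contrast, the 3 genes for the identical mature c subunit of the ATP synthase rotor ring were all expressed, ATP5MC2 at 83.1, ATP5MC3 at 31.4 and ATP5MC1 at 31.2 CPM per kb. Near-identical copies and pseudogenes could draw reads from a member. Named pseudogenes held 1.48% as many counts as all nuclear members together, and over 10% in 4 members, NDUFV2, COX6A1 (43.3%), UQCRFS1 (26.4%) and SDHA (20.8%). NDUFV2, a core subunit of complex I, had only 514 counts while its pseudogene had 5674, so its level is uncertain.

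The first question was how subunit mRNAs had changed by 72 h of production. Nuclear mRNAs were lower as a broad group and by small amounts. Of 81 nuclear members tested, 75 fell and 3 rose, with a median log2 fold change of -0.36, which is a fall of 21.9% (mean over the 5 lines, 15 libraries per time; edgeR quasi-likelihood test with Benjamini-Hochberg adjusted p under 0.05). Of all 21242 genes tested, 29.6% fell and 30.5% rose, with a median of 0.03. Among the 10817 genes with a mean log2 CPM of 3 or more, 5468 fell (50.6%), with a median of -0.07. That value is a floor, above which the nuclear members ran from 3.92 (NDUFA9) to 9.30 (ATP5F1B). The 10817 genes were thus not matched to the members in abundance. All 75 nuclear members above that abundance fell, none of them as much as 2-fold, which 0.212% of all genes did. In bulk RNA, fewer cells of a type and less RNA per cell cannot be told apart, and CPM gives shares of the RNA sampled, not amounts per cell. Scaling by total counts raised the median of all genes by 0.15 at 72 h, and the nuclear count was then 69 lower and 4 higher with a median of -0.20.

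At 72 h the median was below 0 in each complex. Of nuclear members tested, 34 of 37 in complex I fell (median -0.35), 4 of 4 in complex II (-0.32), 8 of 9 in complex III (-0.36), 12 of 14 in complex IV (-0.39) and 17 of 17 in complex V (-0.37). Complex II, which has no mitochondrial member, included the flavoprotein SDHA (-0.25), the iron-sulphur subunit SDHB (-0.30) and the membrane anchors SDHC (-0.35) and SDHD (-0.34). The differences between complexes were not tested.

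**Figure D1:**
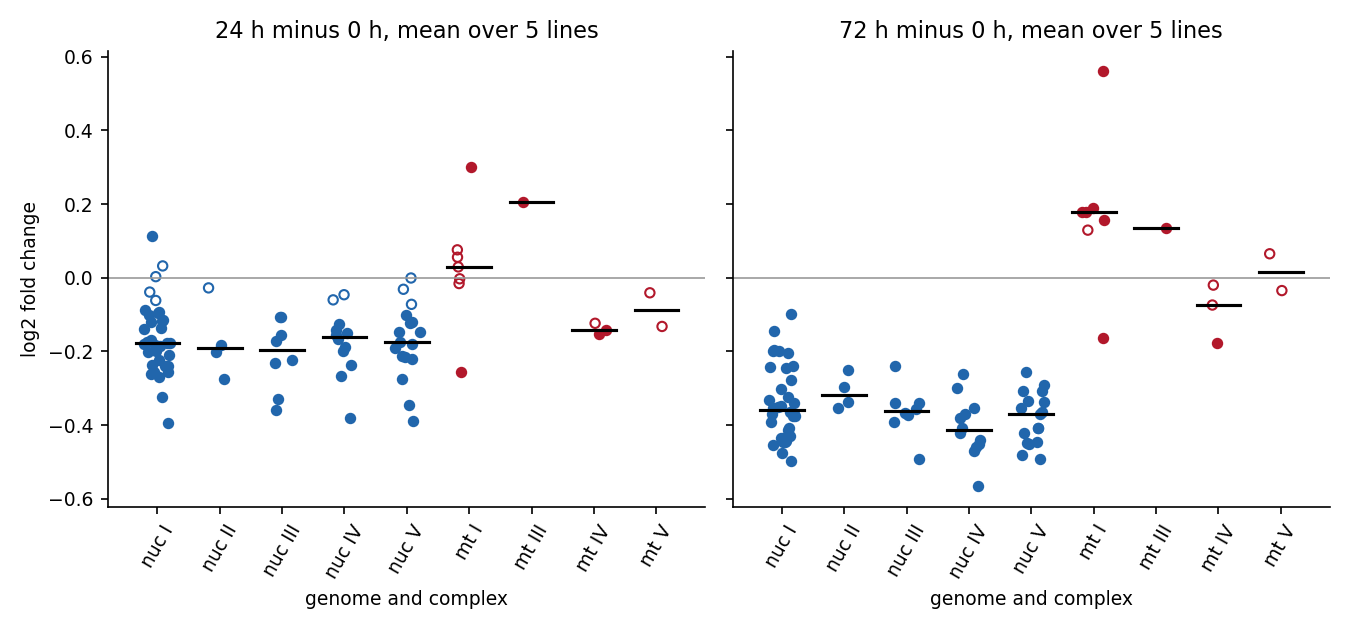
Log2 fold change at 24 h (left) and 72 h (right) against 0 h, mean over 5 lines, for nuclear and mitochondrial members of mean log2 CPM 3 or more, by complex. Filled points passed an adjusted p under 0.05, open points did not, and bars are medians. At 72 h all 75 nuclear members lie below 0, and mitochondrial members lie on both sides of it.

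NDUFA4 (chromosome 7, 10931951 to 10940256) fell most among the abundant nuclear members. Its level was 102 to 144 CPM at 0 h (median 120), 82.9 to 121 at 24 h (median 98.7) and 68.9 to 110 at 72 h (median 78.8). The ranges at 0 h and 72 h overlapped only in their ends, across lines that start from different levels. The log2 fold change at 72 h was -0.57 (SE 0.04, adjusted p = 9.52e-13). The next were NDUFA2, an accessory subunit of complex I (-0.50), ATP5PD, a subunit of the peripheral stalk that holds the ATP synthase head (-0.49), UQCR10, a small subunit of complex III (-0.49), and the rotor ring gene ATP5MC3 (-0.48), each with an SE of 0.02 to 0.04.

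ATP5F1B stood at 619 to 872 CPM at 0 h (median 735), 549 to 748 at 24 h (median 620) and 480 to 618 at 72 h (median 533). Every 72 h library was below every 0 h library. The log2 fold change at 72 h was -0.45 (SE 0.02, adjusted p = 4.34e-26). At the other end were NDUFA10, an accessory subunit of complex I (-0.10, SE 0.02, adjusted p = 0.000275), and NDUFV1, the complex I subunit that binds NADH and FMN (-0.14, SE 0.02, adjusted p = 2.38e-07). With scaling by total counts these last values were 0.05 for NDUFA10 (adjusted p = 0.0287) and 0.01 for NDUFV1 (adjusted p = 0.718).

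The 3 nuclear members that rose at 72 h had low counts. NDUFA13, an accessory subunit of complex I also known as GRIM-19, had 0.517 to 1.38 CPM at 0 h (median 0.813), 0.603 to 1.93 at 24 h (median 1.37) and 1.33 to 3.54 at 72 h (median 1.84), from 2457 counts in all. Its log2 fold change at 72 h was 1.07 (SE 0.13, adjusted p = 1.70e-10), and 20.97% of its exon bases overlap other genes on the same strand, so its reads are uncertain. NDUFA7, another accessory subunit of complex I, changed by 0.56 (SE 0.18, adjusted p = 0.00593) on 1033 counts, with 32.3% such overlap. NDUFA4L2 changed by 1.39 (SE 0.24, adjusted p = 1.31e-06) on 743 counts, from a median of 0.227 CPM at 0 h to 0.460 at 72 h, with overlapping ranges. Of all genes tested, 6.21% were at least 2-fold higher at 72 h, as were 2 of these 3 members.

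At 24 h the nuclear fall was already present in most members. Of 81 tested, 64 fell, against 27.4% of all genes tested, and NDUFS3, NDUFA13 and NDUFA4L2 rose, against 25.8%, with a nuclear median of -0.17 and a median of all genes of -0.01. By complex, 29 of 37 in complex I, 3 of 4 in complex II, 8 of 9 in complex III, 10 of 14 in complex IV and 14 of 17 in complex V fell. Between 24 and 72 h, 63 nuclear members fell further (background 28.9%) and NDUFA13, NDUFV1 and COX6B2 rose (background 29.6%), with a median of -0.19. These contrasts share their 0 h or 24 h libraries, so their values are given side by side and are not independent. Scaling by total counts left 55 lower at 24 h and gave 47 lower and 13 higher between 24 and 72 h. The call of NDUFA10 at 24 h (-0.11, adjusted p = 4.41e-05) ended without the line 293F (-0.03, 0.362), as did that of NDUFV1 between 24 and 72 h (0.02 without it, 0.453). The call of NDUFA13 at 24 h (0.41, adjusted p = 0.0164) ended without 293F (0.22, 0.299) and without AC1.112 24 h replicate 1 alone (0.34, 0.0519).

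The mean courses of named members differed. Most of these members were named as the highest or lowest in a contrast. The contrasts of 24 h with 0 h and of 72 h with 24 h share the 24 h libraries. A low value at 24 h thus favours a small later change, and the courses are only described. COX8A stood at 66.3 to 104 CPM at 0 h (median 85.9), 50.9 to 83.9 at 24 h (median 65.1) and 61.0 to 79.6 at 72 h (median 67.3). It thus fell by 24 h (-0.38, SE 0.03, adjusted p = 3.24e-13), while its change from 24 to 72 h was 0.03 (SE 0.03, adjusted p = 0.534). UQCRC2, a core subunit of complex III, had the same course, with -0.36 by 24 h (SE 0.02) and 0.02 from 24 to 72 h (SE 0.02, adjusted p = 0.474), and so did NDUFA3, an accessory subunit of complex I, with -0.39 (SE 0.04) and -0.01 (SE 0.04, adjusted p = 0.809).

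Other members passed as lower from 24 to 72 h and not by 24 h. ATP5PB, the b subunit of the peripheral stalk, stood at 245 to 341 CPM at 0 h (median 273), 227 to 378 at 24 h (median 280) and 172 to 273 at 72 h (median 215). The 0 h and 24 h ranges overlapped throughout, and the 24 h change was 0.00 (SE 0.03, adjusted p = 0.99990), followed by -0.42 from 24 to 72 h (SE 0.03, adjusted p = 5.70e-16). NDUFB9, an accessory subunit of the membrane arm of complex I, changed by 0.03 by 24 h (adjusted p = 0.475) and by -0.46 after it (SE 0.04), and COX7B, a small subunit of complex IV, by -0.05 (adjusted p = 0.528) and -0.41 (SE 0.06). These are means over lines that could differ. By 24 h COX7B changed by 0.37 in AC1.112 (adjusted p = 0.0334), -0.16 in AC1.203 (0.348) and -0.27 in AC1P (0.147).

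ATP5F1C, the gamma subunit that turns inside the ATP synthase head, changed by -0.03 by 24 h (adjusted p = 0.306) and by -0.38 after it (SE 0.03). SDHB followed the same mean course, with -0.03 (adjusted p = 0.373) and -0.27 (SE 0.03). The 24 h change of SDHB differed between lines by the interaction test. It was 0.13 in AC1.112 (adjusted p = 0.0772), 0.07 in AC1.203 (0.326) and -0.07 in AC1P (0.434). NDUFS3, a core subunit of the peripheral arm of complex I (chromosome 11, 47565336 to 47584562), was 67.7 to 87.1 CPM at 0 h (median 76.5), 65.2 to 91.5 at 24 h (median 85.7) and 58.6 to 75.5 at 72 h (median 65.2). Its ranges overlapped, and its mean over the lines rose by 0.11 by 24 h (SE 0.03, adjusted p = 0.000182) before falling by 0.36 on the log2 scale. The 24 h change was 0.23 in AC1.112 and 0.22 in AC1.203, but -0.07 in AC1P (adjusted p = 0.459). The timing of one member was not tested against that of another.

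**Figure D2:**
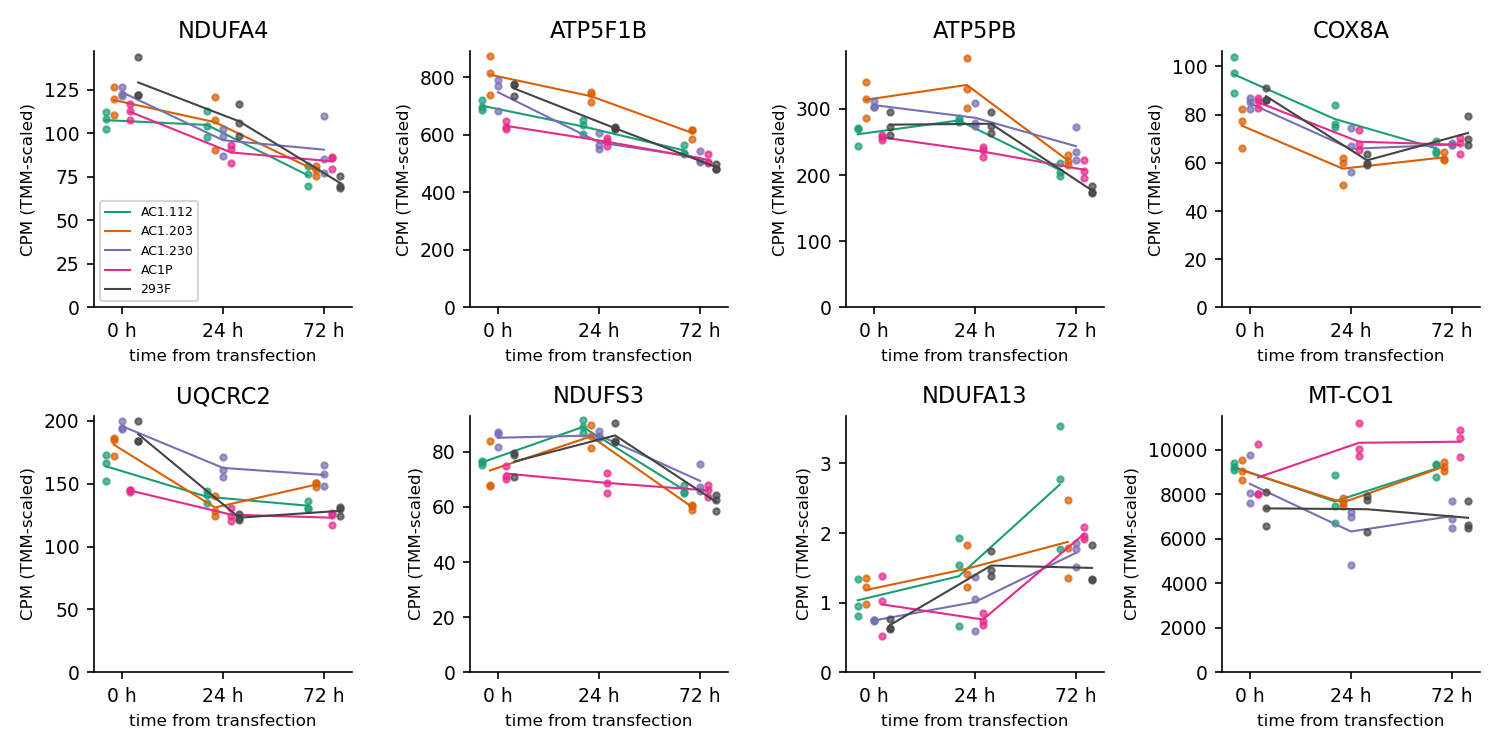
Level in CPM of 8 members in each of the 45 libraries at each time (evenly spaced on the axis), coloured by line, with lines joining the group means. ATP5F1B and NDUFA4 have lower medians at each later time, COX8A and UQCRC2 fall by 24 h, ATP5PB and NDUFS3 are lower at 72 h than at 24 h, NDUFA13 rises from a low level and MT-CO1 has no common course in the 5 lines.

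The mitochondrial members moved in both directions. At 72 h, 6 of 13 rose, MT-ND1 (0.19), MT-ND4 (0.16), MT-ND4L (0.18), MT-ND5 (0.18) and MT-ND6 (0.56) of complex I and MT-CYB, the cytochrome b of complex III (0.13). MT-ND3 (-0.16) and MT-CO3 (-0.18) fell, and the median was 0.13. These are 46.2% higher and 15.4% lower, against 30.5% and 29.6% of all genes tested. At 24 h the median was -0.02. The rises were those of MT-ND6 (0.30) and MT-CYB (0.20), and the falls those of MT-ND3 (-0.25) and the complex IV genes MT-CO1 (-0.14) and MT-CO2 (-0.15). By then 25.8% of all genes tested had risen and 27.4% had fallen. Between 24 and 72 h, MT-ND4, MT-ND5 and MT-ND6 rose by 0.16, 0.20 and 0.26 and 0 of 13 fell. That is 23.1% higher, against 29.6% of all genes higher and 28.9% lower. The difference between nuclear and mitochondrial members is given by these counts and medians and was not itself tested. The mitochondrial genes share 2 long primary transcripts, so they are not independent of each other. Scaling by total counts gave 9 rises and 0 falls at 72 h, with a median of 0.28.

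Many of these mitochondrial calls depended on single libraries. At 72 h the SE of a mitochondrial member was 0.05 to 0.07, and 0.11 for MT-ND6, against 0.02 for ATP5F1B. The call of MT-CYB at 72 h (adjusted p = 0.0443) ended without any 1 of 31 single libraries, that of MT-ND4 (0.0345) without any of 15 and that of MT-ND4L (0.0261) without any of 8. The calls of MT-ND6 and MT-CO1 at 24 h each ended without any of 6 libraries, and between 24 and 72 h those of MT-ND6 and MT-ND4 ended without any of 17 and 12. The falls of MT-ND3 and MT-CO3 at 72 h were -0.01 and -0.02 with scaling by total counts and did not pass. MT-ND6 stood at 15.4 to 31.3 CPM at 0 h (median 22.6) and at 21.7 to 55.8 CPM at 72 h (median 28.3), with overlapping ranges, and its rise at 72 h had an adjusted p of 5.42e-05. MT-ND6 lies opposite other mitochondrial transcripts, and since the strand setting of the counting is not given, its counts could include reads from the other strand.

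Line by line, the nuclear fall was found in all 5 lines at 72 h. The number of nuclear members that fell at 72 h was 67 of 81 in AC1.112 (median -0.32), 61 in AC1.203 (-0.29), 75 in AC1.230 (-0.40), 62 in AC1P (-0.29) and 74 in 293F (-0.46), with 3 libraries per line and time. The share of all genes tested that fell was 18.5%, 17.3%, 22.8%, 13.1% and 22.9% in the same order. At most 3 nuclear members rose in any line, whereas 15%, 14.4%, 17.8%, 12.6% and 20.8% of all genes did. Of the 81, 54 passed as lower in every line (66.7%), and 74 had a negative sign in every line (91.4%). Of all genes tested, 6.81% passed as lower in every line and 22.1% had a negative sign there, and of genes of mean log2 CPM 3 or more 13.3% and 37.8%. At 24 h, AC1.112 had 13 nuclear members lower (median -0.03), AC1.203 28 (-0.11), AC1.230 49 (-0.23), AC1P 39 (-0.21) and 293F 55 (-0.26), against 12.2%, 21%, 15.2%, 9.97% and 23.8% of all genes. Nuclear rises were 3, 3, 0, 0 and 3, against 10.7%, 20.9%, 12.3%, 10.2% and 21% of all genes. The 13 lower in AC1.112 were 16% of the 81, and 17.3% of nuclear members of mean log2 CPM 3 or more. Of all genes of that abundance 18.8% were lower in AC1.112. In a fit of AC1.203 alone the number lower there at 24 h was 17. Of the 81, 6 passed as lower in every line at 24 h (7.41%), against 2.17% of all genes tested and 3.91% of those of mean log2 CPM 3 or more.

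A test of the difference itself, the interaction of line and time, was passed at 24 h by 45 of 81 nuclear and 11 of 13 mitochondrial members, against 44.5% of all genes tested. At 72 h it was passed by 16 nuclear members and 1 mitochondrial member, MT-ND1, against 24.2%. Among genes of mean log2 CPM 3 or more, it was passed at 24 h by 45 of 75 nuclear members (60%) against 67.7% of all such genes, and at 72 h by 16 of 75 (21.3%) against 38.4%. The 72 h counts were 9 to 37 nuclear and 0 to 3 mitochondrial when single libraries were left out. AC1.203 0 h replicate 1, 293F 0 h replicate 2, AC1.203 72 h replicate 1 and 293F 72 h replicate 2 each moved the nuclear count by over 1.5 times, and AC1.230 24 h replicate 1 and 293F 72 h replicate 2 the mitochondrial one. With no filter on low counts they were 30 and 12. At 24 h, NDUFV1 changed by -0.61 in 293F and by -0.08 to -0.20 in the AC1 lines (interaction adjusted p = 8e-08), and SDHC by -0.57 in 293F and -0.06 to -0.26 in the others (3.14e-07). NDUFA10 changed by -0.43 in 293F, -0.22 in AC1.203 and -0.01 to 0.08 in the other lines (9.66e-08). COX7A2L, a subunit-like factor that helps join complexes III and IV, changed by -0.38 in 293F and -0.33 in AC1.203 but by 0.06 to 0.21 in the others (2.3e-07). At 72 h the largest falls of NDUFS1, a core iron-sulphur subunit of complex I (-0.48), SDHC (-0.60), ATP5F1B (-0.64) and SDHB (-0.54) were again in 293F, and the smallest were in AC1P (-0.01, -0.22, -0.30 and -0.16).

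The mitochondrial members moved in different directions in different lines at 24 h. In 293F 5 of 13 rose and 0 fell, against 21% of all genes higher and 23.8% lower. The largest rise was that of MT-CYB, from 950, 1212 and 1100 CPM at 0 h to 2380, 2267 and 1873 CPM at 24 h, with no overlap (log2 fold change 1.00, SE 0.13, adjusted p = 1.22e-07). MT-ND1 rose by 0.86 (SE 0.14), MT-ND2 by 0.76 (SE 0.14), MT-ND6 by 0.65 (SE 0.23) and MT-ATP8 by 0.43 (SE 0.15). In AC1.230, 7 of 13 fell and 0 rose, against 15.2% of all genes lower and 12.3% higher. Among those that fell there were MT-ATP8 (-0.59), MT-ATP6 (-0.55), MT-ND3 (-0.52) and MT-CO1 (-0.42, SE 0.12). MT-CO1 there went from 7606, 8044 and 9763 CPM to 4803, 6999 and 7187 CPM, with no overlap.

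In AC1.112 2 mitochondrial members fell at 24 h, MT-ND3 and MT-CO3, in AC1.203 2, MT-ND3 and MT-CO2, and in AC1P none of 13 passed in either direction (median 0.23). The 2 are 15.4% of the 13 in each line, beside 12.2% of all genes tested lower in AC1.112 and 21% in AC1.203. In AC1P 9.97% of all genes were lower and 10.2% higher. The mean rise of MT-CYB at 24 h over all lines was 0.01 without 293F (adjusted p = 0.929), that of MT-ND6 was 0.22 (0.178), and that of MT-ND1 at 72 h was 0.05 without 293F (0.548). The mean falls of MT-CO1 and MT-CO2 at 24 h ended without AC1.112, AC1.203 or AC1.230. By 72 h in single lines, 3 mitochondrial members were higher in 293F, 1 each in AC1.112 and AC1P, and 2 were lower in AC1.230. The shares of all genes tested were 20.8% higher in 293F, 15% in AC1.112 and 12.6% in AC1P, and 22.8% lower in AC1.230.

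**Figure D3:**
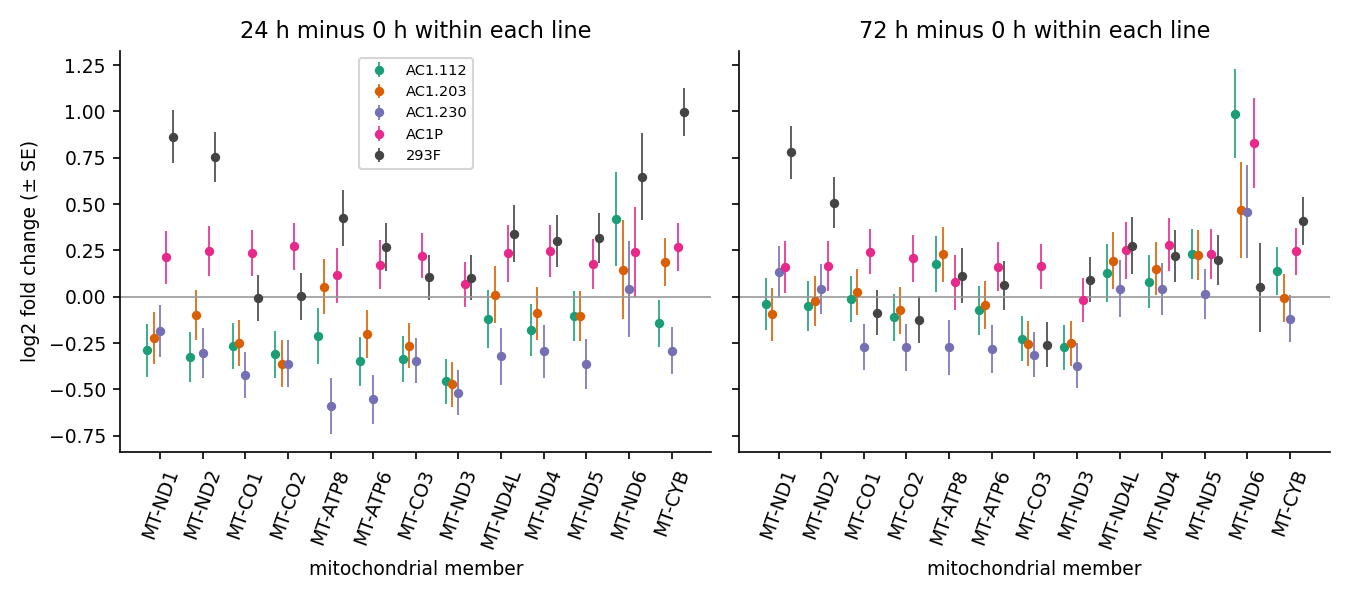
Log2 fold change at 24 h (left) and 72 h (right) against 0 h of the 13 mitochondrial members in each line, in the order of the mitochondrial chromosome, with bars of 1 SE. At 24 h MT-ND1, MT-ND2 and MT-CYB are high in 293F, while most members are below 0 in AC1.230.

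The summed counts of the members show the same contrast as a share of each library. The nuclear members held 1.04% ± 0.03 of all counts in 293F at 0 h (SD, n = 3) and 0.844% ± 0.03 at 72 h. In AC1.112 they went from 0.846% ± 0.01 to 0.744% ± 0.02, in AC1.203 from 0.951% ± 0.07 to 0.843% ± 0.02, in AC1.230 from 0.914% ± 0.01 to 0.774% ± 0.04 and in AC1P from 0.845% ± 0.01 to 0.740% ± 0.02. In every line each 72 h library was below each 0 h library.

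The mitochondrial members held 1.82% to 3.56% of counts in single libraries. The group means ran from 2.29% ± 0.42 in AC1.230 at 24 h to 3.52% ± 0.06 in AC1.203 at 72 h. The ratio of mitochondrial to nuclear counts was lowest in 293F at 0 h (2.48 ± 0.22) and highest in AC1P at 72 h (4.63 ± 0.19), and in each line its mean was higher at 72 h than at 0 h. At 24 h the mean ratio was above that at 0 h in 293F (3.52 against 2.48) and AC1P (4.33 against 3.27) and below it in AC1.112 (2.89 against 3.37), AC1.203 (3.25 against 3.41) and AC1.230 (2.79 against 3.07). These sums and ratios were not tested.

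**Figure D4:**
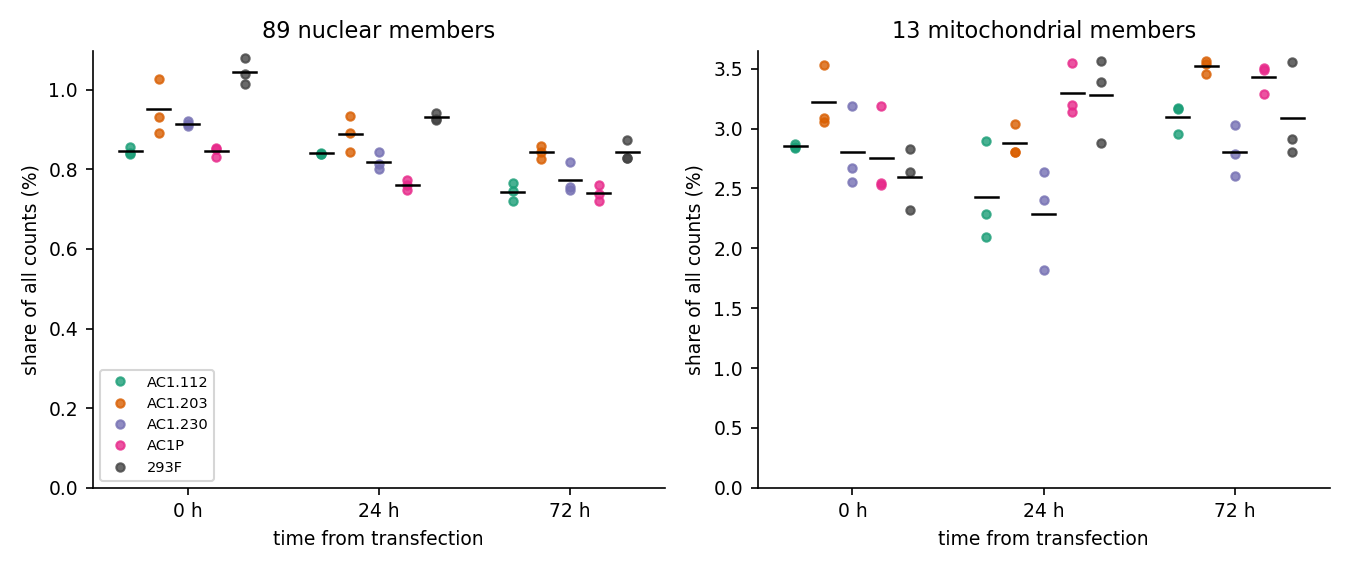
Share of all counts held by the nuclear members (left) and the mitochondrial members (right) in each library, by line and time, with the group mean. The nuclear share at 72 h lies below that at 0 h in each line, whereas the mean mitochondrial share at 24 h is above that at 0 h in 293F and AC1P and below it in the other 3 lines.

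Before transfection the lines differed in most of these genes, about as often as in other abundant genes. At 0 h, 73 of 81 nuclear and 9 of 13 mitochondrial members differed between the 5 lines, against 81.8% of all genes tested. Of genes of mean log2 CPM 3 or more, 71 of 75 nuclear members (94.7%) and 96.7% of all such genes differed. Against 293F, AC1.112 had 40 nuclear members lower and 12 higher (median -0.18), AC1.203 30 and 20 (-0.06), AC1.230 27 and 19 (-0.06) and AC1P 41 and 12 (-0.19). Of all genes tested, 33%, 30.2%, 32.4% and 33.4% were lower and 30.5%, 28.2%, 30.8% and 30.4% higher in the same order. The 4 contrasts share the 3 libraries of 293F. Scaling by total counts lowered the median of all genes by 0.17 to 0.22 in these contrasts, and the nuclear members lower were then 61, 47, 50 and 61.

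Among nuclear members of mean log2 CPM 3 or more, single members differed by up to about 2-fold at 0 h. A less abundant nuclear member of complex IV differed more, with a log2 difference of -2.23 between AC1.112 and 293F. ATP5F1C stood at 247, 251 and 229 CPM in 293F and at 114 to 151 CPM in the 12 libraries of the AC1 lines, without overlap, with log2 differences from -0.83 to -1.05 (SE 0.06). NDUFB8, a membrane arm subunit of complex I, stood at 25.2 to 28.3 CPM in 293F and 11.9 to 17.5 CPM in the others, again without overlap, although 33.8% of its exon bases overlap other genes on its strand. SDHB was lowest in AC1.230, at 62.5 to 68.6 CPM against 133 to 148 CPM in 293F (log2 difference -1.12, SE 0.06, adjusted p = 1.78e-26). NDUFB2, a membrane arm subunit, was 98.7 to 105 CPM in 293F and 45.5 to 54.7 CPM in AC1.203 (-1.05, SE 0.06), and NDUFA1, another, was 77.3 to 85.3 CPM in 293F and 37.5 to 47.5 CPM in AC1.203 (-0.98, SE 0.07).

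UQCRH and NDUFV3 went the other way. UQCRH stood at 213 to 225 CPM in 293F and at 301 to 549 CPM in the AC1 lines, without overlap (0.48 to 1.1, SE 0.07). NDUFV3, an accessory subunit beside the NADH-binding site of complex I, stood at 41.8 to 45.9 CPM in 293F and 62.9 to 94.7 CPM in the AC1 lines, without overlap (0.60 to 1.09, SE 0.05 to 0.06). UQCRB, a complex III subunit, was 0.79 higher in AC1.203 (SE 0.06), and COX6C, a small complex IV subunit, 0.68 higher in AC1.230 (SE 0.07).

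Across all 4 AC1 lines, 9 nuclear members were higher than in 293F, NDUFV3, SDHA, UQCRB, UQCRC1, UQCRH, COX6C, ATP5F1D, ATP5MC2 and ATP5PF, and 15 were lower, 8 of complex I and SDHB, SDHD, UQCRFS1, COX5B, COX7A2, ATP5F1C and ATP5MC1. These are 11.1% and 18.5% of the 81, against 15.6% and 17.5% of all genes tested that were called higher and lower in all 4 lines, and 25.9% and 17.3% of genes of mean log2 CPM 3 or more. Members of a single complex thus differed in both directions, as UQCRH was higher and UQCRFS1 lower in every AC1 line. With scaling by total counts, 7 of the 9 kept their call in all 4 lines, SDHA losing it in 3 lines, with values of -0.06, 0.00 and 0.01 in AC1.112, AC1.230 and AC1P, and UQCRC1 in 2, and all 15 lower members kept theirs. Leaving out 1 library ended a call of NDUFB3, NDUFB4, SDHD, COX5B or UQCRC1 in 1 line each, for SDHD in AC1.112 without any of 41 libraries and for NDUFB4 without any of 31.

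No mitochondrial member passed as lower than in 293F in any AC1 line at 0 h, with MT-ND6 at -0.20, -0.49, -0.48 and -0.18 in AC1.112, AC1.203, AC1.230 and AC1P (adjusted p = 0.495, 0.110, 0.101 and 0.539). The number higher was 6 of 13 in AC1.112 (median 0.11), 9 in AC1.203 (0.43), 4 in AC1.230 (0.20) and 5 in AC1P (0.25). These are 46.2%, 69.2%, 30.8% and 38.5% of the 13, against 30.5%, 28.2%, 30.8% and 30.4% of all genes tested. Of genes of mean log2 CPM 3 or more, 45.1%, 40.9%, 44.6% and 43.7% were higher in the same order. The 4 called in all 4 lines are MT-ND1, MT-ND2, MT-ND3 and MT-CYB, which is 30.8% of the 13. Of all genes tested 15.6% were higher in all 4, and of those of mean log2 CPM 3 or more 25.9%. With scaling by total counts MT-ND3 lost its call in 1 line, the mitochondrial median in AC1.112 was -0.11 and 1 or 2 members passed as lower in each line. MT-ND1 stood at 570, 735 and 636 CPM in 293F and at 1262 to 2154 CPM in the AC1 lines, without overlap (1.09 to 1.61, SE 0.14 to 0.15). MT-ND2 stood at 846, 1036 and 931 CPM in 293F and at 1630 to 2444 CPM in the others (0.93 to 1.32, SE 0.14), also without overlap. MT-ND3 (0.43 to 0.92) and MT-CYB (0.54 to 0.84) were higher in all 4 lines too, while MT-ND4 lay at 2953 to 3646 CPM in 293F and 2760 to 4696 CPM in the others, with overlap.

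Nuclear copies of mitochondrial genes on chromosome 1 followed MT-ND1 and MT-ND2. MTND1P23 (chromosome 1, 629062 to 629433) stood at 162 ± 15.4 CPM in 293F at 0 h (SD, n = 3) and at group means of 351 to 545 CPM in the AC1 lines, and MTND2P28 (629640 to 630683) at 471 ± 42.4 CPM and 929 to 1277 CPM. Reads of the mitochondrial genes can align to such copies, which together held 21.05 to 24.5 counts per 100 counts of the mitochondrial members, and how the authors counted such reads is not given. The calls of MT-CO1 in AC1.112 and of MT-CO3 in AC1P against 293F ended without 293F 0 h replicate 1 (0.25, adjusted p = 0.118, and 0.30, 0.06).

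**Figure D5:**
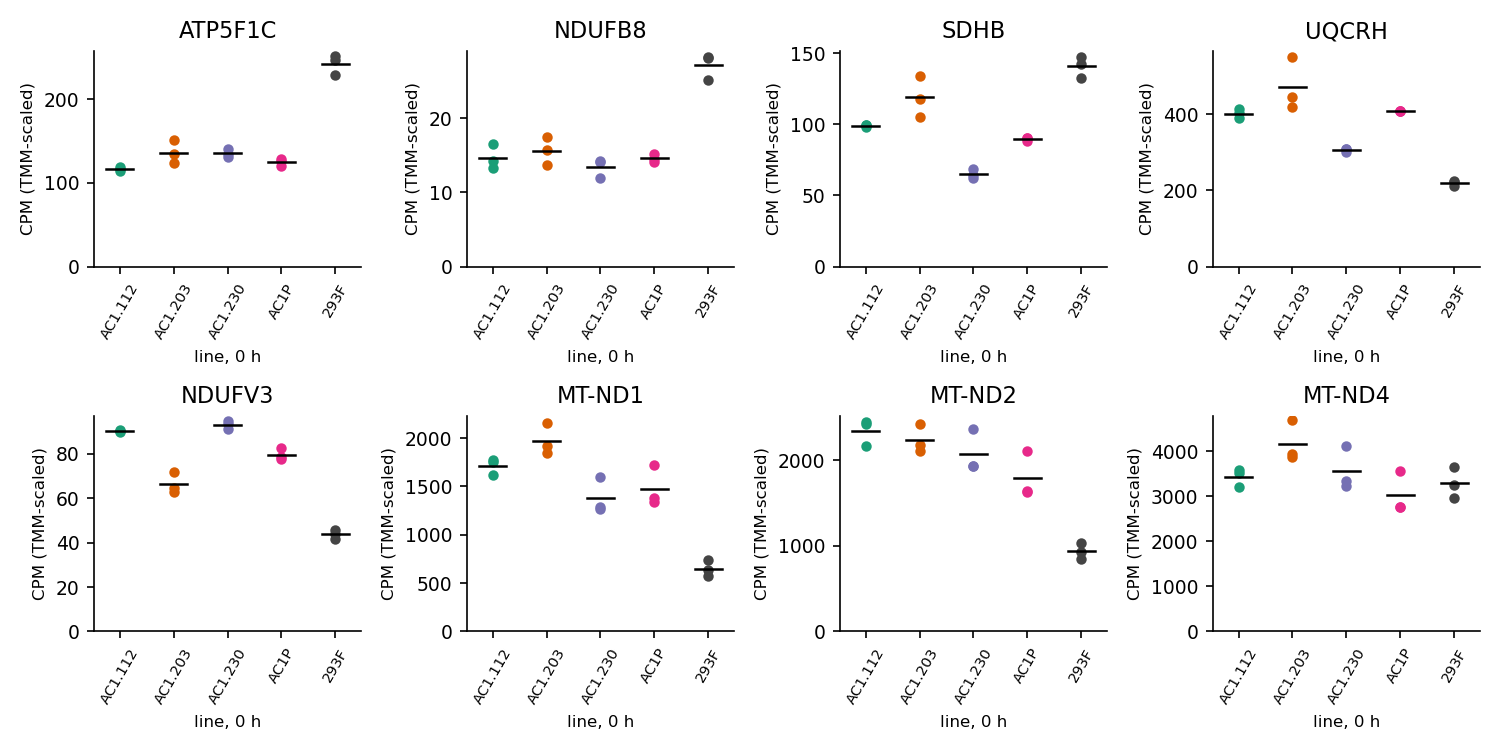
Level in CPM at 0 h of 8 members in the 3 libraries of each line, with bars for the means. 293F lies above the AC1 lines for ATP5F1C and NDUFB8 and below them for UQCRH, NDUFV3, MT-ND1 and MT-ND2, AC1.230 is lowest for SDHB, and MT-ND4 overlaps between lines.

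The promoters of nuclear members were searched for the core motifs of 3 known regulators. The search covered both strands of the 300 bases from 250 before to 50 after the RefSeq start (GRCh38.p14). A promoter was matched for 70 of 89 nuclear members. The NRF1 motif GCGCATG was in 14 of them (20%), against 4.67% of all 27305 promoters of that length, the ETS motif CCGGAAG in 20 (28.6%) against 10.7%, and the YY1 motif AAGATGG in 16 (22.9%) against 6.06%. The ETS motif can share its last bases with the YY1 motif, and the NRF1 motif can overlap its own reverse complement. At least 1 was in 38 (54.3%), against 19.3% of all promoters and 23.5% of the 15842 promoters of protein-coding genes. The share was 65.2% of 69 for the mitochondrial ribosome and 48.6% of 72 for cytosolic ribosomal proteins. A match is a description of sequence, and no binding was measured.

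The 250 bases before the start are shown for 4 members, ATP5PF, a peripheral stalk subunit with all 3 motifs, ATP5F1C, COX8A and NDUFS3. All 4 hold a motif, whereas 38 of the 70 matched promoters did. A link between motifs and the course of a member was not tested. Capitals mark a motif in either orientation, and each sequence runs 5′ to 3′ on the strand of the gene. ATP5PF is at chr21:25735055-25735304 on the minus strand, with motifs beginning 120 (NRF1), 57 (YY1) and 30 (ETS) bases before the start.
ATP5PF: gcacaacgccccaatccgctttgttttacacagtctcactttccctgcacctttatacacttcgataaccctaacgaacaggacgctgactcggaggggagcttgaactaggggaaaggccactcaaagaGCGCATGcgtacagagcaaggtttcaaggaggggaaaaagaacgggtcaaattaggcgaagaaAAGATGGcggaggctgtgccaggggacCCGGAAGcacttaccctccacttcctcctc
ATP5F1C is at chr10:7787927-7788176 on the plus strand, with the NRF1 motif and its reverse complement overlapping from 22 bases before the start.
ATP5F1C: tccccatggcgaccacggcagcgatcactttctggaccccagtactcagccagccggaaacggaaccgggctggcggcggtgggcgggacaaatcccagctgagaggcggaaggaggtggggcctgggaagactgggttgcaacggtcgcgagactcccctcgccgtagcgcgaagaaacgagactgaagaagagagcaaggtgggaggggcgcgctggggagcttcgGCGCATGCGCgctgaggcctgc
COX8A is at chr11:63974370-63974619 on the plus strand, with the reverse complement of the ETS motif from 18 bases before the start.
COX8A: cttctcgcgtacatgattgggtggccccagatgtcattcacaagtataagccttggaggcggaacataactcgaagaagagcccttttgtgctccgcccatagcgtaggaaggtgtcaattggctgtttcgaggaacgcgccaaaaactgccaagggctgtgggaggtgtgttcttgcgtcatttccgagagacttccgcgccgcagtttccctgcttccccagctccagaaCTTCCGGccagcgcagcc
NDUFS3 is at chr11:47578824-47579073 on the plus strand, with the ETS motif in each orientation, 102 and 83 bases before the start.
NDUFS3: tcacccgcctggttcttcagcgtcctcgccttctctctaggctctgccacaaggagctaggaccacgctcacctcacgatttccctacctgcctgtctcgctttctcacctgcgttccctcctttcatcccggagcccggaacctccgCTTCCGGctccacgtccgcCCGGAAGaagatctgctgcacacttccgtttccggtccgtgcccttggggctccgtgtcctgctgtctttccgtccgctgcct
COX8A and ATP5F1C each hold a marked motif close to the start, of different kinds, and NDUFS3 holds the same kind as COX8A. The gene models of GENCODE for these 4 genes begin further upstream than the RefSeq starts.

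Genes that build or serve the complexes were also mostly lower at 72 h. Of 56 assembly factors tested, 46 fell and 3 rose (median -0.21), against the 29.6% lower and 30.5% higher of all genes. They ranged from COA3, which helps MT-CO1 enter complex IV (-0.55), and NDUFAF3 of complex I assembly (-0.45) to NDUFAF6, also of complex I assembly (0.28). Of 18 genes for coenzyme Q and cytochrome c 14 fell and 1 rose (median -0.19), with COQ3, a methyltransferase of coenzyme Q synthesis, at -0.61. Of 25 genes of the TCA cycle and pyruvate dehydrogenase 21 fell and 2 rose (median -0.26), the isocitrate dehydrogenase IDH2 at -0.43 and the phosphatases PDP1 and PDP2, which activate pyruvate dehydrogenase, at 0.20 and 0.42.

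All 11 carriers and related genes fell (median -0.31), among them the outer membrane channel VDAC3 (-0.50), UCP2 (-0.46) and the ADP/ATP carrier SLC25A4 (-0.11), which was 0.04 with scaling by total counts and -0.05 without 293F (adjusted p = 0.255). Of 25 import genes 21 fell and 1, TIMM9 (0.12), rose (median -0.27), and without AC1.112 the value of TIMM9 was 0.07 (adjusted p = 0.0737). The mitochondrial ribosome had 72 of 78 lower and 4 higher (median -0.28), and cytosolic ribosomal proteins 81 of 84 lower and 1 higher (median -0.30), with RPS3A at -0.57. The nuclear subunits, with 75 of 81 lower and a median of -0.36, stood beside these lists. Of all genes tested 29.6% were lower and 30.5% higher at 72 h, and of those of mean log2 CPM 3 or more 50.6% and 26.6%.

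Genes that express the mitochondrial genome changed in both directions at 72 h. Of 40 tested 23 fell and 7 rose (median -0.12), against 29.6% lower and 30.5% higher of all genes and 50.6% lower of those of mean log2 CPM 3 or more. Among them were SSBP1, which coats single-stranded mitochondrial DNA (-0.46), and SLIRP, which stabilises mitochondrial mRNAs (-0.44). The transcription and packaging factor TFAM changed by -0.15, and FASTK, an RNA-binding protein linked to MT-ND6 mRNA, rose by 0.28. POLG2, the accessory subunit of the mitochondrial DNA polymerase, rose by 0.41. Of 16 transcriptional regulators 5 fell and 7 rose (median 0.06), beside the same shares. NRF1 changed by -0.42 and MYC by -0.40, whereas the GABP subunit gene GABPB2 rose by 0.49, the coactivator gene PPRC1 by 0.31 and the nuclear receptor gene ESRRA by 0.20.

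At 24 h the mitochondrial ribosome had 27 lower and 18 higher of 78 (median -0.03), genes that express the mitochondrial genome 10 lower and 15 higher of 40 (median 0.02), and cytosolic ribosomal proteins 52 lower and 3 higher of 84 (median -0.12), beside 64 lower and 3 higher of 81 nuclear subunits (median -0.17). Of all genes tested 27.4% were lower and 25.8% higher, and of those of mean log2 CPM 3 or more 37.4% and 34.1%. The difference between lists was not tested.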

How the data were processed

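Messenger RNA of 45 libraries was analysed, 3 for each of 15 combinations of line and time. Per the labels' protocols, RNA from cell pellets was made into stranded mRNA libraries. The deposited files hold whole-number counts of reads per gene for 60675 Ensembl genes, which the authors made with HISAT2, Subread and featureCounts on GRCh38, per the submitters' processing notes. The strand setting, tool versions, annotation release and treatment of reads that fit several genes: not given in the sources used here.

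Counts were tested as deposited with edgeR 4.0.16 in R 4.3.3. Genes were kept by filterByExpr (minimum count 10, minimum total 15), which left 21242, libraries were scaled by TMM, and the quasi-likelihood test (glmQLFit, robust) was fitted to all libraries over the 15 groups. Genes counted as called had a Benjamini-Hochberg adjusted p under 0.05 over all genes tested, with no minimum fold change unless 2-fold is stated. Time contrasts average the 5 lines with equal weight, each AC1 line was set against 293F at 0 h, and differences in response between lines were tested by an interaction F test with 4 degrees of freedom. All adjusted p-values are from edgeR unless DESeq2 1.42.0 is named. The test was checked on simulated counts. Coordinates and exon lengths came from GENCODE on GRCh38, and promoters from RefSeq.

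The members and gene lists were chosen with earlier results of these data known. Named genes were all mitochondrial members and, among nuclear members of mean log2 CPM 3 or more, the 5 highest and 5 lowest in each time contrast, the 2 highest and 2 lowest of each line against 293F, the 4 with the smallest p for each interaction and between lines at 0 h, the isoform pairs, and the 2 highest and 2 lowest of each other list at 72 h, of which a part is described. The members below that abundance, SDHA to SDHD, NDUFS5, NDUFB2, TFAM, ESRRA and the members called in all 4 lines were named after values were seen. Replicate libraries differed by more than sampling noise (chi-square per degree of freedom 3.95 to 22.0). Alternatives were other scalings, no filter, DESeq2, the replicate block, thinned libraries and each library or line left out. Added after seeing the data were an older quasi-likelihood method and counts with pseudogenes added.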

Additional observations from a re-analysis of the deposited data

Results flagged for a closer look

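The change from 0 h differed between lines in 45 of 81 nuclear and 11 of 13 mitochondrial members at 24 h. This was by the interaction test of edgeR, which 44.5% of all genes tested passed. At 72 h it was passed by 16 nuclear members and 1 mitochondrial member, against 24.2%. Of nuclear members of mean log2 CPM 3 or more, 60% passed at 24 h, against 67.7% of all genes of that abundance. At 72 h these shares were 21.3% and 38.4%. The nuclear count at 72 h was 9 to 37 when single libraries were left out, moved most by AC1.203 0 h replicate 1, 293F 0 h replicate 2, AC1.203 72 h replicate 1 and 293F 72 h replicate 2, and the mitochondrial count was 0 to 3.

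At 24 h the nuclear members with the smallest interaction p-values were NDUFV1 (adjusted p = 8e-08), NDUFA10 (9.66e-08), COX7A2L (2.3e-07) and SDHC (3.14e-07). At 72 h they were NDUFS1 (2.92e-05), SDHC (0.000169), ATP5F1B (0.000769) and SDHB (0.000799). In 293F all 7 genes had the lowest log2 fold change of the 5 lines at the time named, with COX7A2L at -0.38 beside -0.33 in AC1.203.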

How the results depend on the processing

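Of 506 values of counts, medians, shares and levels under other settings, 458 stayed within the limits set and 48 moved. Under total-count scaling, mitochondrial calls were 3 at 24 h and 11 from 24 to 72 h, nuclear rises from 24 to 72 h 13, and the nuclear medians -0.20 at 72 h and -0.091 from 24 to 72 h. Against 293F it gave nuclear falls of 61 (AC1.112), 47 (AC1.203) and 50 (AC1.230), nuclear medians of -0.40, -0.24, -0.24 and, in AC1P, -0.38, and mitochondrial medians of -0.11, 0.25, 0.024 and 0.063. Upper-quartile scaling gave 7 nuclear rises and 9 mitochondrial calls from 24 to 72 h, and nuclear medians of -0.27 (AC1.112), -0.14 (AC1.230) and -0.27 (AC1P). With no filter on low counts, mitochondrial calls were 9 at 24 h, 13 from 24 to 72 h, 11 in AC1.230 and 9 in AC1P against 293F, and the 72 h interaction 30 nuclear and 12 mitochondrial. Mitochondrial calls from 24 to 72 h were 5 with thinning and 5 by DESeq2.

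Without a whole line, mitochondrial calls were 3 at 24 h (without AC1.203 or AC1.230), 5 at 72 h (AC1.112, AC1.203 or AC1P) and 4 (293F), and from 24 to 72 h 1 (AC1.112), 0 (AC1.203) and 9 (293F). Nuclear falls in AC1.203 at 24 h were 17 in a fit of that line alone. On protein-coding counts the mitochondrial share was 3.13% and 3.39% (AC1.112, 0 and 72 h), 3.55%, 3.11% and 3.85% (AC1.203, 0, 24 and 72 h), 3.09% (AC1.230, 72 h) and 3.61% and 3.75% (AC1P, 24 and 72 h). The nuclear level with the longest transcript was 50.4 CPM per kb. The cause of these moves was not tested.

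Leaving out single libraries gave 5 to 9 mitochondrial calls at 72 h, 1 to 7 from 24 to 72 h, 4 to 5 nuclear rises from 24 to 72 h, a nuclear median of -0.24 to -0.12 for AC1P against 293F, and 9 to 37 nuclear and 0 to 3 mitochondrial members in the 72 h interaction. The nuclear falls at 72 h were 75 in each case.

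Of 236 results of named genes, 146 kept direction and call under every alternative, and 252 of 13736 checks lost a call, 201 gained one and 7 changed sign. The sign changed under total-count scaling for NDUFV1 (0.0094), NDUFA10 (0.054), SLC25A4 (0.044) and RPS27L (0.075) at 72 h and ATP5MC2 from 24 to 72 h (0.0057), and without AC1.112 for NDUFAF7 (-0.0085) and MRPS25 (-0.026) at 72 h.

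Replicate numbers did not pair the libraries (correlations of same-numbered libraries from -0.07 to 0.05). With the replicate block, nuclear falls were 64, 75 and 63 in the time contrasts and the interaction counts 46 at 24 h and 17 at 72 h.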
